A study of Mus musculus with 5 samples.

Results

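The tendon-like cells of the mouse penis at postnatal day 6 (P6) were the 673 cells, of 19581 kept penis cells and 62152 kept cells in all libraries, that carried at least 1 unique molecular identifier (UMI, a tag that marks 1 captured RNA molecule) of *Tnmd* or *Scx* and of at least 3 of 6 tendon genes: *Scx*, *Tnmd*, *Mkx*, *Kera*, *Fmod* and *Thbs4*. A penis cell was kept when it had 500 to 6000 detected genes, at most 5% mitochondrial UMIs and a ratio of log10 genes to log10 UMIs of at least 0.8. The cells were selected on these measured values, so the 6 rule genes are given below as a description, with no test. The penis samples were 3 single-cell RNA libraries of the glans of male C57BL/6N mice, as the labels name the strain (the methods of the study name C57BL/6J), with the prepuce removed. The methods state 3 mice from 2 litters, and the labels do not tie a library to a mouse or litter. The limb samples were 1 forelimb and 1 hindlimb library of male embryos of the same strain, labelled embryonic day 15. The labels give no treatment and no altered allele, and the question addressed here is how these penis cells differ from the cells around them and from limb cells chosen by the same rule.

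Tendon is a dense connective tissue of aligned type I collagen that links muscle to bone, and its cells are fibroblasts that make and organise that matrix. *Scx* (scleraxis) and *Mkx* (mohawk) encode transcription factors of the tendon lineage, *Tnmd* (tenomodulin) encodes a membrane glycoprotein of maturing tendon cells, and *Kera*, *Fmod* and *Thbs4* encode matrix proteins that bind collagen. Where a tendon meets cartilage or bone, progenitors that carry both *Scx* and *Sox9*, the transcription factor that drives cartilage formation, build the attachment. The mouse penis holds a bone, the baculum, together with cartilage and dense fibrous tissue.

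The tendon-like cells numbered 241, 230 and 202 in penis libraries 1, 2 and 3. They made up 3.55%, 3.25% and 3.54% of the kept cells of those libraries, with 95% exact (Clopper-Pearson) intervals of 3.12 to 4.02%, 2.85 to 3.69% and 3.07 to 4.05% that cover counting error only. The share was 3.45% ± 0.172 (SD, n = 3 libraries), and the 3 intervals overlapped. Tendon-like cells were deeper than the other kept cells: their median was 12358, 11560 and 10556.5 UMIs, against 9822, 9258 and 8736. A rule that needs UMIs of several genes depends on depth. After cells under 4000 UMIs were left out and the rest thinned to 4000, the mean share was 1.81%. This step left 5829 of 6788, 5999 of 7085 and 4922 of 5708 kept cells in libraries 1, 2 and 3. No tendon-like cell shared a barcode with a tendon-like cell of another library. The penis libraries held 51529854 to 68417925 UMIs in their kept cells.

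*Scx* was detected in 561 (83.4%) of the 673 cells and *Tnmd* in 241 (35.8%). Both genes were found in 129 cells, *Scx* without *Tnmd* in 432 and *Tnmd* without *Scx* in 112. Detection of the rule genes was thin for most cells: 375 cells (55.7%) carried exactly 3 of the 6 genes, 210 carried 4, 75 carried 5 and 13 carried all 6. The most frequent combination was *Scx* with *Mkx* and *Fmod*, in 183 cells, and *Scx* with *Mkx*, *Kera* and *Fmod* followed with 114. *Tnmd* was concentrated in few cells, because 51 cells with at least 10 *Tnmd* UMIs held 65.7% of the 1559 *Tnmd* UMIs of the tendon-like cells, and the highest cell had 53.

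Levels are given below as CPM, the UMIs of a gene scaled to 1e6 UMIs summed over the cells of a set in 1 library. *Scx* (chr15:76457452-76459458, plus strand, GRCm38) stood at 194, 169 and 223 CPM in the tendon-like cells of libraries 1, 2 and 3, and at 3.73, 3.16 and 2.94 CPM in the other kept penis cells. *Tnmd* (chrX:133850980-133865577, plus strand) stood at 211, 124 and 244 CPM against 0.581, 0.919 and 0.772 CPM. *Mkx*, *Kera* and *Fmod* were likewise higher in each library, as the rule requires. *Thbs4* was the exception: it stood at 31.4, 31.7 and 16.3 CPM against 22.3, 23.5 and 20.1 CPM, so the sets overlapped, and only 15.2% of the tendon-like cells had a *Thbs4* UMI. The tendon-like cells held 92.0% of all *Tnmd* UMIs of the kept penis cells and 72.7% of the *Scx* UMIs, but 34.3% of *Mkx* and 25.0% of *Fmod*. *Mkx* and *Fmod* were thus also spread over other penis cells.

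**Figure D1:**
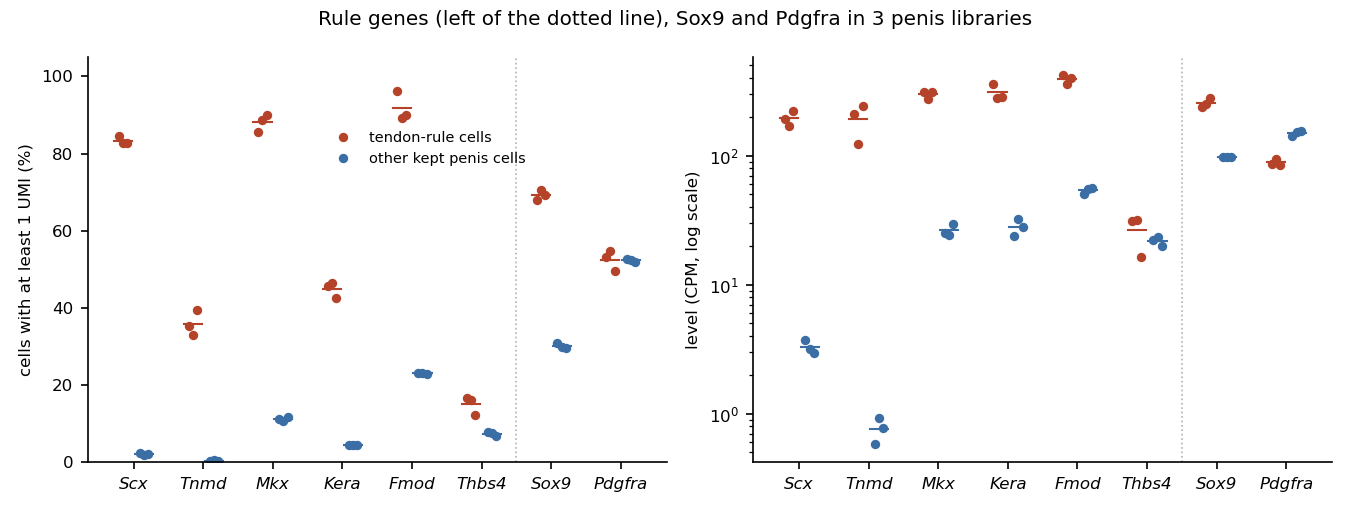
Share of cells with at least 1 UMI (left, percent) and level (right, CPM on a log axis) of the 6 rule genes, *Sox9* and *Pdgfra*, in tendon-like cells (red) and other kept penis cells (blue). Each point is 1 of 3 penis libraries and each line their mean. In level *Scx* and *Tnmd* differ most and the *Thbs4* points overlap, and *Sox9*, which the rule did not use, is higher in all 3 libraries at 236 to 281 CPM against 97.3 to 97.9 CPM.

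Just inside the limit, the 375 cells with 3 rule genes had 134 CPM of *Scx* and 75.9 CPM of *Tnmd* over all penis libraries. Just outside it, 247 cells carried 2 rule genes including *Scx* or *Tnmd*, with 115 CPM of *Scx* and 27.6 CPM of *Tnmd*. A further 174 cells carried at least 3 of the other rule genes and no UMI of *Scx* or *Tnmd*. Those 174 cells had 103 CPM of *Thbs4*, against 27.3 CPM in the tendon-like cells. Since they had to carry at least 3 of *Mkx*, *Kera*, *Fmod* and *Thbs4*, this *Thbs4* level follows in part from how they were chosen. Of the 174 cells 81.0% had a *Pdgfra* UMI, against 52.6% of the tendon-like cells. *Mkx* stood at 63.6 CPM in the cells with 2 rule genes and at 271 CPM in those with exactly 3, an order that follows from the rule.

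Markers of other cell types were mostly lower in the tendon-like cells than in the other kept cells, and chondrocyte markers were higher. The 4 endothelial markers summed to 26.4 to 31.4 CPM, against 318 to 350 CPM in the other kept cells. Of the 4 immune markers, *Ptprc* was at 0 in libraries 1 and 3, and the sum was 3.08 to 21.3 CPM against 181 to 196 CPM. The 4 mural (pericyte and smooth muscle) markers summed to 41.8 to 83.9 CPM against 167 to 195 CPM, and all 4 skeletal muscle markers were at 0 in libraries 2 and 3, as were 3 of 4 in library 1. The 4 epithelial markers summed to 40.5 and 39.99 CPM in libraries 1 and 3 and to 296 CPM in library 2, where 3 cells held 88.7% of the *Krt15* UMIs. The 4 glial markers summed to 21.6, 6.97 and 127 CPM against 396 to 473 CPM, with library 3 the highest. The 4 chondrocyte markers summed to 239 to 264 CPM against 178 to 214 CPM, and 41.1 to 49.6% of the tendon-like cells carried at least 2 UMIs of them, against 10.2 to 11.2% of the others. In the same libraries the 4 osteoblast markers summed to 27.2 to 58.6 CPM against 61.9 to 76.8 CPM, although 4.95 to 8.30% of the tendon-like cells carried at least 2 UMIs of them, against 2.64 to 2.85% of the others. Red blood cell markers stood at 1425 to 2300 CPM against 1978 to 2589 CPM, and the 3 highest cells held 89.7 to 93.1% of the *Hba-a1* UMIs. Among cells with at least 10 UMIs of the endothelial, immune, epithelial, glial or mural markers, 0.142% to 0.996% met the tendon rule. With at least 2 UMIs, 0.445% (immune) to 2.46% (epithelial) did. Such cells made up 9.06% (mural), 7.58% (epithelial), 5.79% (endothelial), 1.04% (glial) and 0.594% (immune) of the tendon-like cells. Leaving out cells with at least 2 UMIs of any of these lists or of the skeletal muscle markers left 192, 183 and 157 tendon-like cells. The part of such cells in a result was not tested beyond leaving them out.

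The tendon-like cells were first compared with all other kept penis cells. UMIs were summed per library and tested with edgeR (quasi-likelihood, library as a block). A gene was called when its p, adjusted by the method of Benjamini and Hochberg, was under 0.01 and it differed at least 2-fold. Of 18439 genes tested, 548 (2.97%) were higher in the tendon-like cells and 1625 (8.81%) were lower. The genes with the largest differences among those that the naming rule takes were *Grem1*, *Fbxo2*, *Col11a1*, *Caln1*, *Itgbl1*, *Esrrg*, *Chad*, *Cnmd*, *Egfl6* and *Wif1* on the higher side. On the lower side were *S100a9*, *S100a8*, *Emcn*, *Pf4*, *Lyz2*, *Ctla2a*, *Tyrobp*, *Plac8*, *Cd93* and *Fcer1g*, which mark blood, immune and endothelial cells. All 4 endothelial, 4 immune, 4 glial and 4 mural markers were called lower. Of these, *Myh11* fell short of the limit without library 3 (log2 fold change -0.87), and *Myh11* and *Rgs5* were not called by DESeq2 (adjusted p = 0.084 and 0.0682).

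Because of those cells, the main comparison was with the 9914 other kept penis cells that had at least 1 UMI of *Pdgfra*. It encodes a receptor carried by most fibroblasts and mesenchymal cells. The tendon-like cells were not chosen on *Pdgfra*, and 52.6% of them had a UMI of it. They had 86.6, 94.8 and 85.3 CPM of *Pdgfra*, against 237, 255 and 265 CPM in the comparison cells. The part of this one-sided choice in the differences was not tested. In the tendon-like cells 11 of 24 further tendon genes and 8 of 13 cartilage genes were higher, the BMP inhibitor gene *Grem1* showed the largest difference among the genes that the naming rule takes on the higher side, and 4 of 14 genes common to fibroblasts were lower. Of 16864 genes tested, 551 (3.27%) were higher and 1043 (6.18%) lower. The median log2 fold change over all genes tested was -0.02. Without the library block, 1785 genes were called in place of 1594.

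Of 24 further tendon genes tested, none of them in the rule, 11 were higher and 3 lower, with a median log2 fold change of 0.81. The list is not specific to tendon, since the study's marker table places *Col11a1* among the chondrocyte genes. *Col11a1*, a chain of the minor fibrillar collagen XI (chr3:114030540-114220718, plus strand), stood at 1106, 989 and 1107 CPM in the tendon-like cells and at 72.7, 79.4 and 80.2 CPM in the other *Pdgfra*-positive cells. It was 14.6-fold higher (log2 fold change 3.87 ± 0.05 SE, edgeR adjusted p = 3.75e-15). *Ecrg4*, which encodes a secreted peptide precursor, had 1565, 1371 and 1343 CPM against 216, 223 and 210 CPM. *Chad*, which encodes the cartilage and tendon matrix protein chondroadherin (chr11:94565047-94569127, plus strand), had 91.2, 87.5 and 85.7 CPM against 8.99, 8.70 and 8.04 CPM, 10.9-fold more (edgeR adjusted p = 2.9e-12). The ranges of these genes lay far apart. *Thbs2*, *Col12a1*, *Prg4* (lubricin, a lubricant of gliding surfaces), *Cpxm2*, *Thbs1*, *Tnc* (tenascin-C) and *Comp* were also higher, *Thbs2* by 4.37-fold and *Tnc* by 2.06-fold. *Comp* fell short of the 2-fold limit without library 1 (log2 fold change 0.91) and without library 3 (0.96), and lost its call in 5 alternative settings in all. *Tnc* lost its call in 3, none of them with a library left out. *Dpt*, *Htra3* and *Chodl* were lower, *Dpt* (dermatopontin) with 40.2, 42.2 and 51.0 CPM against 364, 389 and 389 CPM.

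In the list of fibrillar collagens and their enzymes, *Col1a1* was the only collagen called higher and *Col5a3* the only one called lower. *Col1a1*, the main chain of type I collagen, had 19225, 16965 and 18757 CPM in the tendon-like cells against 7441, 7441 and 7713 CPM, and was 2.58-fold higher (log2 fold change 1.37 ± 0.03 SE, edgeR adjusted p = 1.26e-12). *Col1a2* did not reach the 2-fold limit, with a log2 fold change of 0.96, nor did *Col5a2* with 0.98. *Col3a1*, the chain of type III collagen, had a log2 fold change of -0.44, and *Col5a3* was lower, with 10.8, 16.7 and 7.91 CPM against 69.8, 66.3 and 72.0 CPM. Of 21 fibrillar collagens and their enzymes, 4 were higher and 2 lower, the higher ones with *Plod2*, which hydroxylates collagen lysines, and *Pcolce* and *Pcolce2*, which enhance procollagen cleavage. Of 11 small leucine-rich proteoglycans outside the rule, 5 were higher: *Chad*, *Ecm2*, *Aspn* (asporin), *Bgn* (biglycan) and *Omd*, and *Epyc* (epiphycan) was lower. *Bgn* had 1937, 1767 and 2028 CPM against 1010, 958 and 973 CPM. Of 16 microfibril and elastic fibre genes none was higher and 3 were lower, namely *Mfap5*, *Efemp1* and *Fbn1* (fibrillin-1). The other 13 microfibril and elastic fibre genes were not called. *Pcolce* and *Omd* fell short of the 2-fold limit without library 1 (log2 fold changes 0.96 and 0.86).

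**Figure D2:**
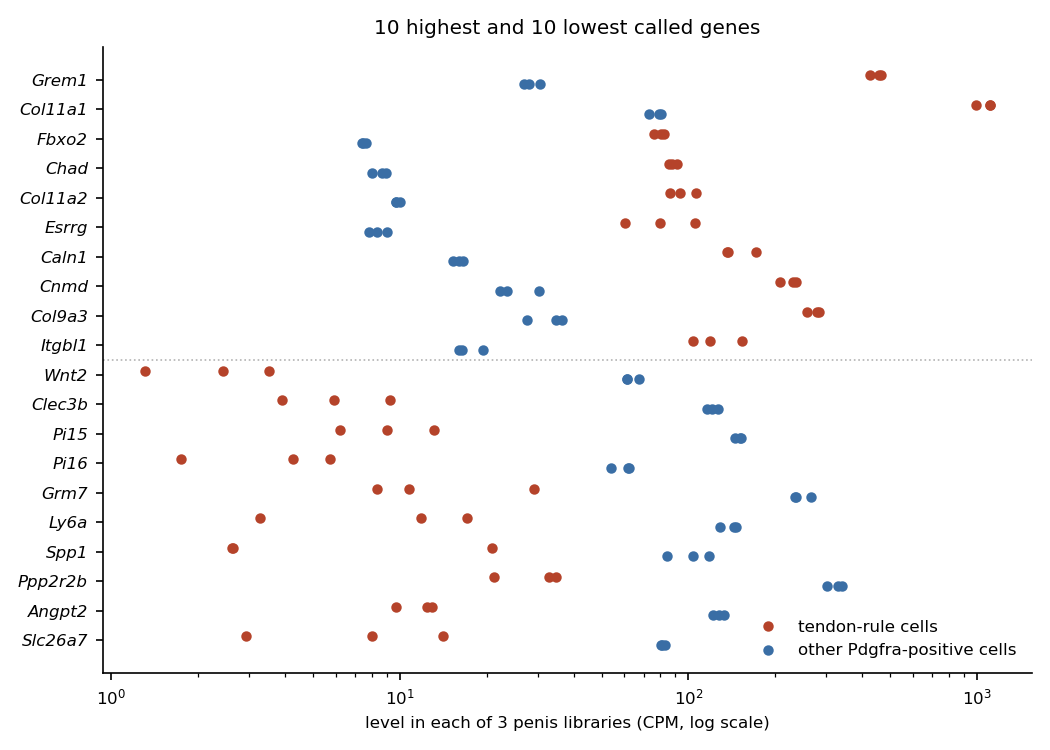
Level (CPM, log axis) of the 10 highest and 10 lowest genes that the naming rule takes, in tendon-like cells (red) and other *Pdgfra*-positive penis cells (blue). Each point is 1 of 3 libraries, and the dotted line parts higher from lower genes. *Grem1* and *Col11a1* lie at 427 to 465 and 989 to 1107 CPM, apart from 26.9 to 30.6 and 72.7 to 80.2 CPM in the comparison cells.

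Cartilage genes gave the list with the largest share called. Against the other *Pdgfra*-positive cells 8 of 13 were higher and none lower, with a median log2 fold change of 1.68. *Cnmd*, which encodes chondromodulin, a relative of tenomodulin made by cartilage (chr14:79637690-79662170, minus strand), had 235, 208 and 231 CPM in the tendon-like cells against 30.3, 23.6 and 22.2 CPM. It was 9.41-fold higher (edgeR adjusted p = 1.26e-12). *Col9a3*, a chain of collagen IX that coats cartilage fibrils, had 257, 283 and 279 CPM against 36.5, 34.8 and 27.7 CPM. Its partner chains *Col9a1* and *Col9a2* were 3.22-fold and 5.80-fold higher, and *Acan* (aggrecan) 4.61-fold. *Sox5* and *Sox6*, which act with *Sox9* on cartilage genes, were 3.60-fold and 7.44-fold higher. *Sox9* itself had 236, 252 and 281 CPM against 100.1, 99.2 and 96.7 CPM, 2.75-fold more (log2 fold change 1.46 ± 0.06 SE, edgeR adjusted p = 2.32e-10). *Col2a1*, the main collagen of cartilage, was not called: it had 55.6, 65.5 and 52.3 CPM against 29.7, 46.0 and 21.7 CPM, a log2 fold change of 0.94. *Mia*, *Hapln1*, *Matn3* and *Snorc* were not called either. *Col2a1* was thus higher in each library but under the 2-fold limit. Against all other kept cells 8 of 14 cartilage genes were higher, with a median log2 fold change of 1.32, and *Matn1* and *Snorc* were lower. *Matn1* lost that call in every fit with 1 library left out. The 4 chondrocyte markers summed to 77.6 to 112 CPM in the other *Pdgfra*-positive cells and to 178 to 214 CPM in all other kept cells.

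Of 11 bone genes, 4 were lower and 1 higher. *Spp1* (osteopontin) had 2.61, 20.9 and 2.64 CPM against 104, 118 and 84.1 CPM, and in library 2 a single cell held 68.3% of its UMIs. *Ibsp* and *Bglap* (osteocalcin) were lower as well. *Ibsp* lost its call when only cells of 5000 to 20000 UMIs were summed (log2 fold change -1.34, edgeR adjusted p = 0.0696), and *Bglap*, under 5 CPM in every library, lost it without library 1 and without library 3. *Dlx5*, a homeobox gene of early bone cells, was 2.00-fold higher and fell to a log2 fold change of 0.95 without library 1. *Runx2*, the master regulator of bone formation, had 48.0, 48.1 and 21.1 CPM against 20.6, 23.0 and 25.1 CPM, so that library 3 lay within the range of the comparison cells, and it was not called.

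Signalling genes were described by their roles. *Grem1* (chr2:113746164-113758646, minus strand) encodes gremlin 1, a secreted inhibitor that binds BMPs. It had 427, 457 and 465 CPM in the tendon-like cells against 26.9, 30.6 and 28.0 CPM, 16.7-fold more (log2 fold change 4.07 ± 0.05 SE, edgeR adjusted p = 3.75e-15), and no library came near the range of the other set. Of 21 BMP and GDF genes 5 were higher and 6 lower. Among the ligands, *Bmp5* was 6.03-fold higher, with 93.5, 106 and 112 CPM against 18.1, 18.9 and 17.6 CPM, and *Gdf5* and *Gdf6*, known from forming joints, were higher at low levels of 2.94 to 3.83 and 4.39 to 10.1 CPM. *Gdf6* lost its call without library 1 (log2 fold change 0.97, edgeR adjusted p = 0.0667). *Bmp3*, *Bmp4*, *Bmp6*, *Bmp7* and *Gdf10* were lower, *Bmp4* with 32.4, 28.2 and 22.0 CPM against 115, 108 and 106 CPM. The receptor *Bmpr1b* was 2.80-fold higher and the inhibitor *Fst* (follistatin) lower, at 0.234 of the level in the comparison cells. The response genes *Id1*, *Id2* and *Id3* were not called, with log2 fold changes of -0.06, -0.16 and -0.08.

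*Wif1* (chr10:121033960-121100650, plus strand) encodes a secreted protein that binds Wnts and blocks them. It had 839, 826 and 849 CPM against 127, 115 and 110 CPM, 7.57-fold more (edgeR adjusted p = 1.54e-14). Of 18 Wnt genes 3 were higher: the inhibitor genes *Wif1* and *Sfrp4*, and *Dkk3*, a member of the Dickkopf family. The 5 lower ones were the ligands *Wnt2*, *Wnt11* and *Wnt16*, the amplifier *Rspo2* and the inhibitor *Dkk2*. *Wnt16* lost its call without library 1 (log2 fold change -0.96, edgeR adjusted p = 0.0116). *Wnt2* showed the largest difference on the lower side of the naming rule, with 1.31, 2.44 and 3.52 CPM against 67.3, 61.5 and 61.2 CPM. The Wnt target *Axin2* was not called (log2 fold change -0.49).

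Of 15 FGF genes none was higher and 4 were lower: *Dusp6*, *Etv1*, *Spry1* and *Spry4*, which are known as targets or feedback inhibitors of FGF signalling. Their levels were low, *Spry1* at 7.19, 9.06 and 10.5 CPM against 23.9, 20.6 and 23.0 CPM. None of the FGF receptor or ligand genes tested was called. Of 15 TGF-beta genes only *Tgfb1* was called, 2.07-fold higher, and it fell to a log2 fold change of 0.95 without library 1. Of 11 hedgehog genes 1 was higher, *Cdon*, and 1 was lower. Of 14 genes of mechanosensing and force transmission 3 were higher, the collagen receptors *Itga10* and *Itga11* and *Ccn2*, a target of the mechanosensitive factor YAP. *Itga10* fell just short of the limit without library 1. *Itga11* had 38.9, 36.9 and 39.6 CPM against 8.50, 8.42 and 8.94 CPM, while *Yap1* itself and *Piezo1* were not called.

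Of 15 further transcription factor genes of tendon, *Meox1*, *Six2* and *Eya2* were higher, *Meox2* and *Klf4* lower, and the other 10 not called. *Meox1* had 30.1, 28.9 and 33.4 CPM against 4.25, 4.29 and 5.32 CPM. *Klf4* fell short of the limit without library 2, with a log2 fold change of -0.99. Among 22 genes of genital mesenchyme and posterior patterning *Tbx15* was higher and *Msx2* lower. *Hoxd13* and *Hoxa13*, which pattern limb ends and genitalia, were not called, with log2 fold changes of 0.05 and -0.30. Of 8 genes that handle steroid hormones *Esr1* (oestrogen receptor) was 2.57-fold higher, with 214, 202 and 247 CPM against 93.2, 90.7 and 89.3 CPM, and *Nr3c2* was lower.

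Of 14 genes common to fibroblasts of many tissues 4 were lower and none higher. *Pi16*, a marker of fibroblasts around vessels, had 4.25, 1.74 and 5.71 CPM against 61.8, 62.4 and 53.9 CPM, and *Clec3b* had 3.92, 5.93 and 9.23 CPM against 127, 121 and 116 CPM. The ranges of both genes lay apart. *Ly6a* and *Dpt* completed the 4. Of 9 genes of tendon sheath and fascia *Ly6a*, *Cd55*, *Tppp3* and *Creb5* were lower and *Prg4* higher. Of 13 genes of cell division *Rrm2*, *Cdk1*, *Top2a* and *Aurkb* were 2.03-fold to 2.31-fold higher, *Aurkb* with a log2 fold change of 0.93 without library 3. *Mki67* had 78.8, 61.7 and 103 CPM against 41.0, 38.3 and 56.3 CPM with no call. None of 9 genes of dissociation stress was called, *Fos* with 1727, 1901 and 2026 CPM against 1935, 1874 and 1925 CPM. Among markers of other cell types 2 of 4 endothelial, 2 of 4 immune and 2 of 4 mural markers were lower (*Notch3* not without library 1), none of the glial and red blood markers was called, and the epithelial gene *Epcam* was higher at 5.23 to 7.19 CPM against 1.53 to 2.60 CPM.

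**Figure D3:**
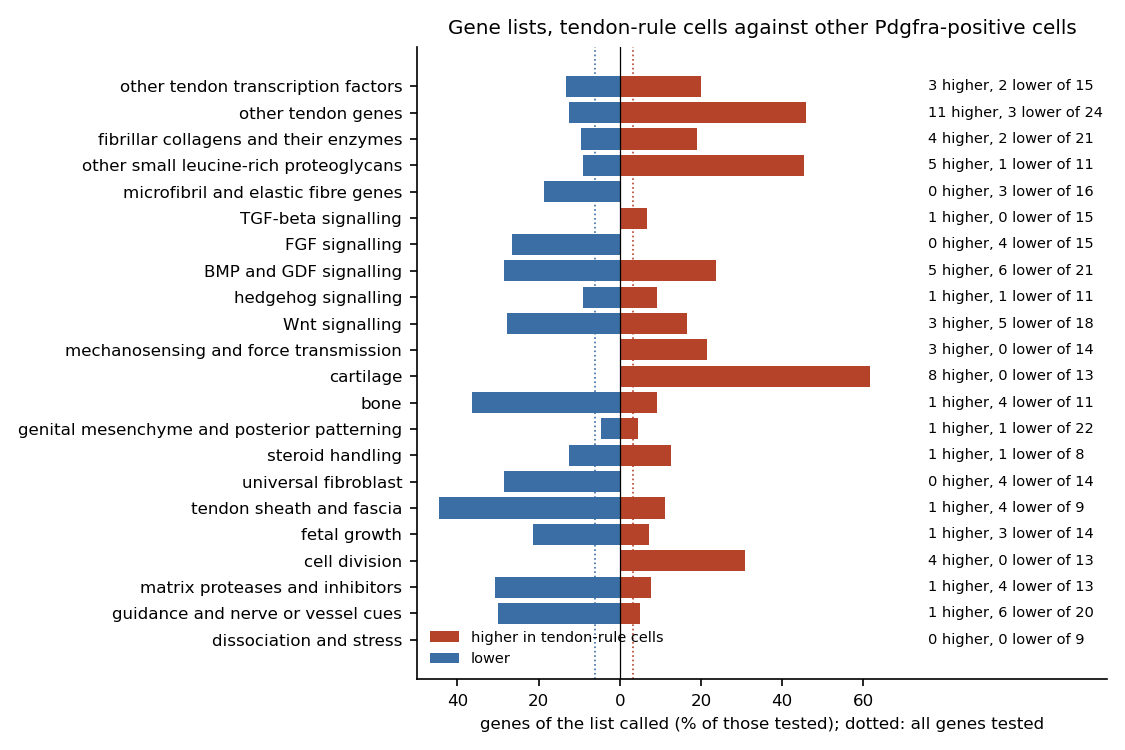
Share of the genes of each list (percent of those tested) called higher (red, right) and lower (blue, left) in tendon-like cells than in other *Pdgfra*-positive penis cells, with the counts at the right. Dotted lines mark the shares over all genes tested, 3.27% higher and 6.18% lower, and the cartilage list has 8 of 13 genes higher and none lower.

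The tendon-like cells were not uniform, and cells with more rule genes differed from those with fewer. Values in this paragraph are over all 3 penis libraries together and carry no test, since the number of rule genes follows the rule. From 1 rule gene (*Scx* or *Tnmd*, 244 cells) through 2, 3 and 4 to 5 or 6 rule genes (88 cells), *Col1a1* stood at 4077, 8626, 13029, 21197 and 31734 CPM and *Col11a1* at 76.8, 258, 825, 1206 and 1655 CPM. The cartilage genes took another course. *Cnmd* stood at 9.45, 80.3, 334, 136 and 8.54 CPM and *Col9a3* at 42.5, 87.6, 373, 195 and 64.9 CPM, each highest in cells with 3 rule genes. *Grem1* had 48.8, 145, 482, 460 and 295 CPM. The 88 cells with the most tendon genes thus held the most collagen I and little *Cnmd*, and this held in each library: *Cnmd* stood at 1.89, 29.1 and 0 CPM in them, against 340, 317 and 350 CPM in the cells with 3 rule genes.

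Cells with at least 2 *Sox9* UMIs made up 123 of 241, 121 of 230 and 118 of 202 tendon-like cells in libraries 1, 2 and 3, or 51.0%, 52.6% and 58.4%. The share among other kept cells was 19.9%, 18.1% and 17.9%, and among other *Pdgfra*-positive cells 23.4%, 21.3% and 20.4%. The difference from the other kept cells was 35.4 percentage points ± 4.77 (SD of 3 paired differences) and went the same way in 3 of 3 libraries. An exact two-sided permutation test over the 3 library pairs gave p = 0.25, the smallest value that 3 pairs allow. With cells under 4000 UMIs left out and the rest thinned to 4000, the mean shares were 26.5% and 9.22%. This left 239, 228 and 198 tendon-like cells and 5590, 5771 and 4724 other kept cells. Immune cells, which should lack *Sox9*, gave a background of 3.34% of 898 cells at a median of 7828.5 UMIs, against 11434 UMIs in the tendon-like cells. Of all 3891 kept penis cells with at least 2 *Sox9* UMIs, 362 (9.30%) met the tendon rule, so most *Sox9* cells of the penis were not among the tendon-like cells. In the limb the tendon-rule cells had 13.5% and 20.1% with at least 2 *Sox9* UMIs, against 10.5% and 15.8% of other limb cells, and after thinning 5.17% and 8.66% against 6.82% and 11.1%. The limb difference thus turned at this step and the penis difference did not. In the forelimb it left 592 of 712 tendon-rule cells and 14444 of 21345 others. In the hindlimb it left 569 of 613 and 15261 of 19901, so thinning and the loss of shallow cells cannot be told apart.

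The 362 tendon-like cells with at least 2 *Sox9* UMIs were then compared with the 311 without. Most cartilage genes tested were higher in the former, and *Sfrp2*, *Igfbp6* and *Tnxb* were higher in the latter. Of 10711 genes tested 92 (0.859%) were higher and 89 (0.831%) lower in the cells with *Sox9*, and the median log2 fold change was near 0. Leaving out penis library 1 left 133 genes called in all and leaving out library 2 left 218.

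*Cnmd* led the higher genes, with 408, 343 and 336 CPM in the cells with *Sox9* against 37.2, 35.1 and 51.1 CPM in those without, 8.50-fold more (log2 fold change 3.09 ± 0.15 SE, edgeR adjusted p = 1.05e-06). Of 9 cartilage genes tested 7 were higher and none lower: *Cnmd*, *Col9a1*, *Col9a2*, *Col9a3*, *Sox6*, *Hapln1* and *Col2a1*. *Col9a3* had 416, 398 and 390 CPM against 75.1, 135 and 91.5 CPM. *Col2a1* lost its call without library 1 (log2 fold change 0.95, edgeR adjusted p = 0.0145). *Sox5* and *Acan* were not called. Among other genes, *Fzd9* (a Wnt receptor), *Scrg1*, *Mecom*, *Ptprt* and *Fbxo2* (an F-box protein of ubiquitin ligases) were higher, *Fbxo2* with 125, 114 and 116 CPM against 29.5, 27.1 and 26.1 CPM. *Bmp5* was 2.67-fold and *Grem1* 2.05-fold higher, and *Grem1* fell to a log2 fold change of 0.96 without library 2. *Esr1* was 2.41-fold higher. The early bone genes *Runx2* and *Dlx5* were higher too, and both lost their call without library 1 (edgeR adjusted p = 0.035 and 0.011).

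On the lower side, *Sfrp2*, a secreted Wnt modulator, had 261, 204 and 198 CPM in the cells with *Sox9* against 1341, 872 and 992 CPM, 0.197 of the level in those without (edgeR adjusted p = 4.16e-07). *Igfbp6*, *Igfbp3*, *Tnxb* (tenascin-X), *Mfap5*, *Efemp1* and the homeobox gene *Shox2* were lower as well, *Shox2* with 34.2, 45.8 and 62.8 CPM against 221, 177 and 181 CPM. None of these ranges overlapped. Of 23 further tendon genes none was higher and 3 were lower, *Igfbp6*, *Thbs1* and *Col14a1*, while *Col11a1* (log2 fold change -0.16), *Tnc* (0.08) and *Thbs2* (0.20) were not called. *Col1a1* had 13946, 13928 and 13941 CPM against 25286, 20871 and 26966 CPM, which did not reach the 2-fold limit (log2 fold change -0.88). The rule genes are given as values only: *Kera* stood at 186, 155 and 160 CPM with *Sox9* against 563, 441 and 503 CPM without, and *Mkx* at 372, 281 and 291 CPM against 245, 265 and 341 CPM. *Kera* thus differed between the sets in every library while the *Mkx* ranges overlapped. *Scx* was lower with *Sox9*, at 150, 129 and 183 CPM against 244, 222 and 292 CPM, and its ranges lay apart. *Tnmd* had 181, 101 and 215 CPM against 246, 154 and 295 CPM, lower in each library with ranges that overlapped. *Fmod* and *Thbs4* did not go the same way in all libraries. The 4 chondrocyte markers summed to 339 to 349 CPM in the cells with *Sox9* and 119 to 152 CPM in those without. The 4 osteoblast markers summed to 84.4, 74.3 and 32.8 CPM against 23.9, 38.2 and 17.8 CPM, and the 4 mural markers to 22.6, 58.9 and 31.4 CPM against 63.9, 62.9 and 174 CPM. The 4 epithelial markers summed to 34.2, 159 and 37.7 CPM against 47.7, 472 and 44.0 CPM, and *Krt15* was called lower but not without library 2. Red blood markers went both ways, with 732, 4016 and 2210 CPM against 2734, 93.2 and 85.6 CPM. Their part in the differences was not tested. No gene of cell division was called, nor any of dissociation stress.

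**Figure D4:**
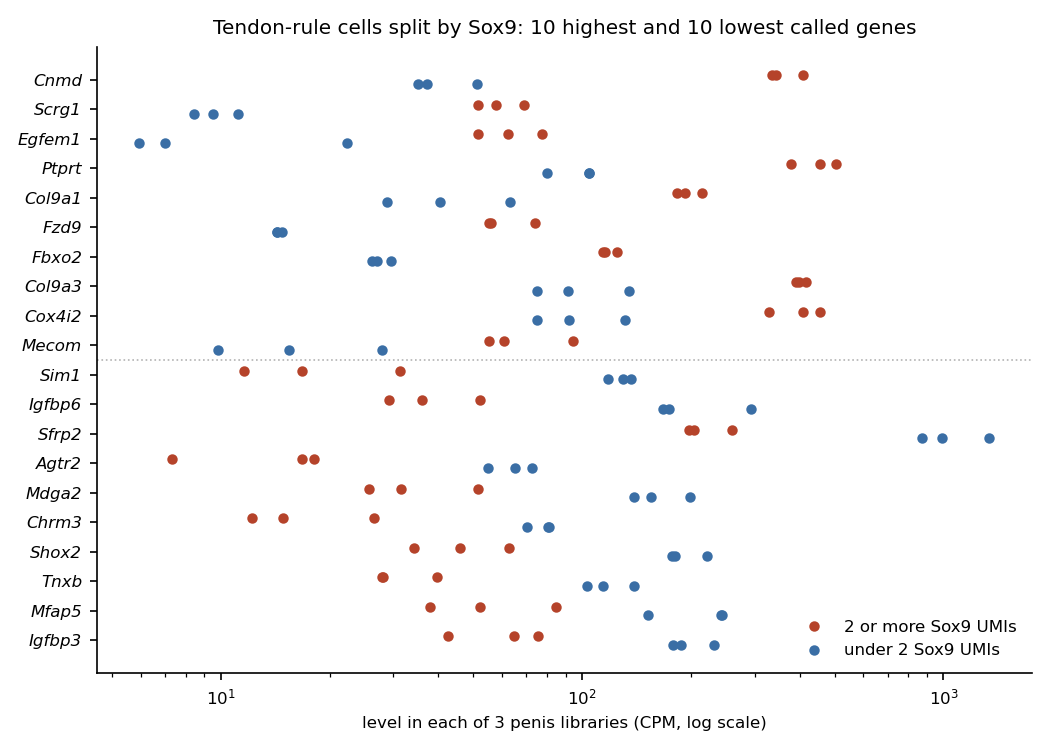
Level (CPM, log axis) of the 10 highest and 10 lowest genes that the naming rule takes, in tendon-like cells with at least 2 *Sox9* UMIs (red) and under 2 (blue). Each point is 1 of 3 penis libraries, and *Cnmd* and *Sfrp2* lie at 336 to 408 and 198 to 261 CPM with *Sox9*, against 35.1 to 51.1 and 872 to 1341 CPM without.

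The 112 cells with *Tnmd* and no *Scx* (37, 40 and 35 by library) were compared with the 432 with *Scx* and no *Tnmd* (156, 154 and 122). The cells with *Tnmd* had less *Wif1*, *Egfl6*, *Npnt* and *Acta2*, and more *Gas2*, *Rtl4*, *Fbxo2* and *Aqp1*. Of 9575 genes tested 33 (0.345%) were higher and 59 (0.616%) lower in the cells with *Tnmd*. The number called, 92 with all 3 libraries, rose to 157 without library 2 and fell to 73 without library 1 and 70 without library 3.

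*Wif1* stood at 96.2, 300.4 and 177 CPM in the cells with *Tnmd* alone against 1117, 1031 and 1244 CPM in those with *Scx* alone, 0.157 of the level (log2 fold change -2.67 ± 0.20 SE, edgeR adjusted p = 2.96e-08). *Egfl6*, a secreted matrix protein, had 72.7, 172 and 118 CPM against 479, 505 and 488 CPM, and *Npnt* (nephronectin, an integrin ligand) 55.6, 60.5 and 25.7 CPM against 285, 213 and 236 CPM. *Acta2*, the actin of smooth muscle and myofibroblasts, had 12.8, 33.2 and 7.71 CPM against 287, 290 and 59.97 CPM. *Ccn2*, *Thbs1*, *Igfbp6*, *Fgf7* and *Vcl* (vinculin, which links integrins to actin) were lower as well, and *Fgf7* and *Vcl* each lost their call without library 1 and without library 3. All the ranges given lay apart, with library 3 lowest for *Acta2* in both sets. The 4 mural markers summed to 21.4, 35.1 and 30.8 CPM in the cells with *Tnmd* alone, where *Kcnj8* was at 0 in all 3 libraries, against 48.2, 72.0 and 41.9 CPM. These are low levels: only *Notch3* of the 4 passed the low-count filter, and it was not called (log2 fold change -0.18). The 9 genes of dissociation stress summed to 3475, 3779 and 4221 CPM in the cells with *Tnmd* alone against 4570, 4547 and 5295 CPM, and none of them was called. The 4 epithelial markers summed to 32.1, 31.2 and 25.7 CPM against 35.2, 428 and 41.9 CPM, and *Krt15* was called lower, but not by DESeq2. The part of these groups in the differences of this comparison was not tested. On the higher side were *Gas2*, with 218, 164 and 79.7 CPM against 59.8, 42.3 and 19.5 CPM, *Rtl4*, *Fbxo2* and the water channel *Aqp1*. The ranges of *Gas2* did not overlap either. The Wnt inhibitor gene *Sfrp1* was higher too, with 186, 131 and 113 CPM against 67.8, 62.1 and 60.7 CPM, and fell to a log2 fold change of 0.94 without library 1. *Nppc* and *Sorcs3* lost their call without library 3, and *Nr2f1* and *Tmem158* without library 1 and without library 3. Library 2 decided *Angptl7*, at 21.4, 58.5 and 12.9 CPM against 6.53, 5.74 and 6.50 CPM, which was not called without it. None of 10 cartilage genes, 19 genes of fibrillar collagens and their enzymes or 14 further transcription factor genes of tendon was called. *Sox9* was not called (276, 191 and 314 CPM against 241, 272 and 291 CPM). Cells with both *Scx* and *Tnmd* carried at least 2 *Sox9* UMIs in 41.7%, 44.4% and 46.7% of cases, those with *Tnmd* alone in 56.8%, 55.0% and 68.6% and those with *Scx* alone in 52.6%, 53.9% and 59.8%.

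The same rule chose 712 forelimb cells (3.23% of kept cells) and 613 hindlimb cells (2.99%). Penis and limb differ here in tissue, age and preparation, which cannot be told apart, and the limb libraries were shallower, with medians of 6713.5 and 7646 UMIs per chosen cell. *Tnmd* stood at 549 and 423 CPM in the forelimb and hindlimb cells and *Thbs4* at 245 and 227 CPM. In the penis cells *Tnmd* was at 124 to 244 CPM and *Thbs4* at 16.3 to 31.7 CPM. *Scx* was lower in the penis cells too, at 169 to 223 CPM against 272 and 277 CPM. The other rule genes went the other way. *Mkx* had 274 to 313 CPM in the penis cells against 153 and 182 CPM. *Fmod* had 356 to 418 CPM against 166 and 160 CPM, and *Kera* 280 to 361 CPM against 255 and 249 CPM. These genes chose the cells, at unlike depth, so their levels carry no test. In the penis cells *Grem1* and 9 of 22 genes of genital mesenchyme were higher, and in the limb cells 8 of 15 FGF genes were. Of 13179 genes tested, with 3 penis and 2 limb libraries and no block, 1079 (8.19%) were higher in the penis and 1058 (8.03%) lower. The forelimb and hindlimb libraries were taken as replicates of 1 group, so neither limb type had its own replicate. The methods do not tie a limb library to embryos, so the 2 may share them. Of 9 genes of dissociation stress *Hspa1a* and *Hspa1b*, which encode heat shock proteins, were higher in the penis, *Hspa1a* with 65.0, 66.6 and 72.9 CPM against 24.8 and 18.5 CPM. The endothelial marker *Pecam1* and the immune markers *Fcer1g* and *Tyrobp* were lower, *Tyrobp* not without the forelimb library or without penis library 1 or 3. The part of stress and of other cells in this comparison was not tested.

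*Agt* (angiotensinogen) had 143, 107 and 137 CPM in the penis cells and 0.425 and 0.292 CPM in the limb cells. *Srd5a2*, which makes dihydrotestosterone, had 56.2, 52.6 and 58.9 CPM against 0.708 and 0.583 CPM (log2 fold change 6.42 ± 0.22 SE, edgeR adjusted p = 4.48e-09), and *Esr1* 214, 202 and 247 CPM against 3.397 and 8.02 CPM. The limb levels of these genes are near 0. *Isl1*, a homeobox gene of the genital tubercle, *Ramp1* and *Ryr3* were higher too, with *Grem1* 28.8-fold, *Chad* 27.4-fold and *Fbxo2* 27.0-fold higher. Of 22 genes of genital mesenchyme and posterior patterning 9 were higher, among them *Tbx3*, *Alx4*, *Sim1*, *Msx1* and *Hoxa13*, and only *Lhx9* was lower. *Lhx9* lost its call without penis library 1 and without the forelimb library, and *Msx2*, another of the 9, lost it without either limb library and without penis library 1 or 2. On the limb side, *Ebf3* had 177 and 203 CPM in the limb cells against 0, 2.79 and 0.879 CPM in the penis cells, and *Ebf2*, *Foxp2*, *Kirrel3*, *Hmga2* and *Meox2* went the same way. Of 15 FGF genes 8 were higher in the limb, *Spry1* with 54.4 and 53.4 CPM against 7.19, 9.06 and 10.5 CPM, and *Fgfr3* alone was higher in the penis. *Myog*, a skeletal muscle regulator, was at 36.4 and 9.04 CPM in the limb cells and at 0 in all penis libraries.

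Of 24 further tendon genes 10 were higher in the penis cells and 4 in the limb cells. *Col1a1* was 3.39-fold higher in the penis, and *Ecrg4*, *Prg4*, *Col14a1* and *Thbs2* were higher, while *Col11a1* and *Col12a1* did not differ past the limit (log2 fold changes 0.12 and 0.24). *Cilp*, *Col22a1*, a collagen of the muscle and tendon junction, *Matn4* and *Htra3* were higher in the limb, *Col22a1* with 22.8 and 23.2 CPM against 0.327, 0.349 and 0.439 CPM. Of 14 cartilage genes 4 were higher in the penis, *Cnmd*, *Col9a1*, *Col9a3* and *Sox9*, and 5 in the limb, with *Col9a1* at a log2 fold change of 0.97 without the forelimb library. *Col2a1*, which was among those, had 430 and 396 CPM in the limb cells against 55.6, 65.5 and 52.3 CPM. The cartilage genes thus went both ways. The keratins *Krt5*, *Krt14* and *Krt15* were called higher in the penis and lost that call without either limb library.

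Since penis and limb cells differ in general, the contrast of tendon-rule cells with other *Pdgfra*-positive cells was also compared between the tissues, as an interaction over all 5 libraries with the library as a block. This comparison was added after the data were seen. Of 18824 genes tested 414 (2.2%) had a higher contrast in the penis and 670 (3.56%) a lower one, at a median difference of -0.07 on the log2 scale. Of 14 cartilage genes 10 had a higher contrast in the penis and none a lower one. The 4 chondrocyte markers summed to 488 and 689 CPM in the limb comparison cells, against 77.6 to 112 CPM in the penis ones. In the chosen cells they summed to 627 and 605 CPM in the limb and 239 to 264 CPM in the penis. At least 2 UMIs of them were in 43.0% and 52.5% of the limb cells and 41.1 to 49.6% of the penis cells. The part of these levels in the contrast was not tested. *Col9a3* was above the comparison cells by a log2 difference of 3.11 in the penis and stood at -0.28 in the limb, where it had 111 and 111 CPM in the chosen cells against 108 and 177 CPM in the others (difference of contrasts 3.39 ± 0.15 SE, edgeR adjusted p = 8.47e-12). *Cnmd* gave 3.21 in the penis and -0.16 in the limb, and *Sox9* 1.43 and -0.25. Of 25 further tendon genes 10 had a higher contrast in the penis, led by *Chad* (3.42 against -0.05), and 7 a lower one. *Cilp* gave -0.35 in the penis and 4.80 in the limb, *Htra3* -1.20 and 2.35, and *Col22a1* -0.82 and 2.18, the last losing its call without the forelimb library and without penis library 1 or 2. *Grem1* gave 4.04 in the penis and 0.10 in the limb (edgeR adjusted p = 1.02e-13). The values of *Col9a3*, *Cnmd* and *Sox9* were thus above 0 in the penis and slightly below it in the limb.

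**Figure D5:**
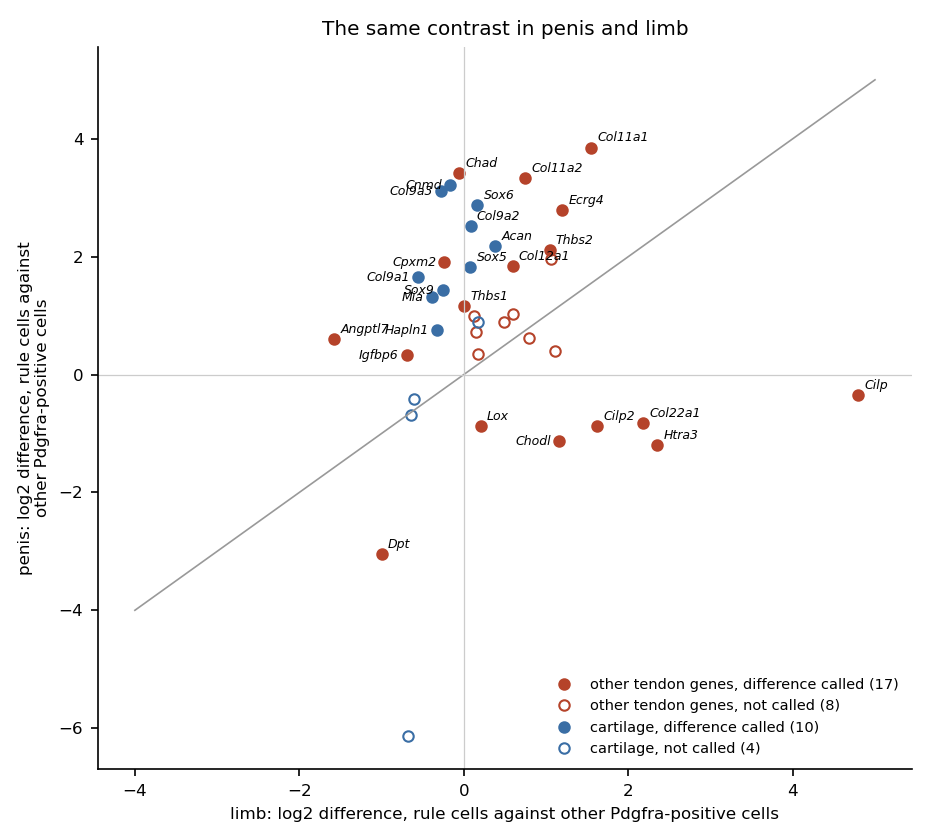
Log2 difference between tendon-rule cells and other *Pdgfra*-positive cells in the penis (vertical) and limb (horizontal) for 14 cartilage genes (blue) and 25 further tendon genes (red). Filled points passed the test of the difference between the tissues (edgeR, 3 penis and 2 limb libraries) and the line marks equal values, with *Cnmd* and *Col9a3* near 0 in the limb and above 3 in the penis, and *Cilp* at 4.80 in the limb. The lowest point is *Matn1*, which was not called.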

How the data were processed

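Single-cell suspensions were run on 10x 3′ v3.1 chemistry, and the authors aligned the reads to mm10 (GRCm38) with Cell Ranger 7.0.0. The deposited matrices hold raw UMI counts per gene and barcode for 32285 identifiers, and whether intronic reads were counted is not given in the sources used here. Limits on cells followed the methods of the study, read as genes per cell (limb cells: at least 100 genes, at most 9000 in the forelimb or 9500 in the hindlimb, at most 10% mitochondrial UMIs). Kept cells of a set were summed per library, so that the replicate is the library. In the comparisons within the penis, the p-values measure how the difference within a library varied over 3 penis libraries. The limb and interaction fits also rest on the spread between the forelimb and hindlimb libraries. These were taken as replicates of the same group, with no replicate of either limb type. Sums were tested with edgeR 4.0.16 in R 4.3.3 (TMM, filterByExpr, quasi-likelihood test, Benjamini-Hochberg adjustment). The library was a block wherever 2 sets of a library were compared, because both sums came from the same cell suspension. Genes that define a set were counted in library sizes and not tested.

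The cells, the gene lists and the tests were chosen with earlier results of these data known, and genes that accompany the rule genes are favoured by that choice. Genes were named by a rule: the 10 called genes per direction with the largest change among those with at least 50 CPM in every library of the higher group and the same direction in every library, predicted genes left out, and up to 4 examples of each list. Genes named beyond these were chosen after their values were seen. Some genes that this rule or the lists name are not reported here. Scrublet (scanpy 1.11.5) marked 0.0141 to 0.193% of penis cells and had not worked there, so that leaving out the 6% with the highest scores was an alternative and doublets otherwise stayed in. Other alternatives were DESeq2 1.42.0, no low-count filter, other limits on rule genes and depth, no cells with markers of another type, no block, and each library left out. Coordinates are from GENCODE vM21, which held 32158 of the identifiers. Exact intervals and permutation tests used scipy 1.17.1.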

Additional observations from a re-analysis of the deposited data

Results flagged for a closer look

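The contrast of tendon-rule cells with other *Pdgfra*-positive cells differed between penis and limb for 27 genes of the cartilage list and the further tendon genes, by an interaction term tested with edgeR over 5 libraries and added after the data were seen. Values are the penis log2 difference minus the limb log2 difference, and tissue, age and preparation cannot be told apart. The limb comparison cells had 488 and 689 CPM of chondrocyte markers, against 77.6 to 112 CPM in the penis ones. Among cartilage genes the value was 3.39 for *Col9a3*, 3.37 for *Cnmd*, 2.71 for *Sox6*, 2.43 for *Col9a2*, 2.21 for *Col9a1*, 1.80 for *Acan*, 1.75 for *Sox5*, 1.71 for *Mia*, 1.69 for *Sox9* and 1.09 for *Hapln1*. Among further tendon genes it was 3.48 for *Chad*, 2.58 for *Col11a2*, 2.30 for *Col11a1*, 2.17 for *Angptl7*, 2.15 for *Cpxm2*, 1.59 for *Ecrg4*, 1.25 for *Col12a1*, 1.15 for *Thbs1*, 1.06 for *Thbs2* and 1.03 for *Igfbp6*. The value was below 0 for 7 tendon genes, with -5.15 for *Cilp*, -3.55 for *Htra3*, -3.00 for *Col22a1*, -2.499 for *Cilp2*, -2.30 for *Chodl*, -2.05 for *Dpt* and -1.08 for *Lox*. Of the 5 fits that each left out 1 library, *Cilp2* lost its call in 4, *Col22a1* in 3, *Igfbp6* in 2, and *Angptl7*, *Hapln1* and *Mia* in 1.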

How the results depend on the processing

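The share of tendon-like cells among kept penis cells was 4.70% with at least 2 rule genes and 1.53% with at least 4. It was 1.81% after cells under 4000 UMIs were left out and the rest thinned to 4000. It was 0.864% with the limits read as UMIs, and 3.39 to 3.54% when 1 library was left out. Against other kept cells, 1375 genes were called when only tendon-like cells with under 2 *Sox9* UMIs were set against them. Of the listed or named genes called against other *Pdgfra*-positive cells, 24 lost their call with at least 2 rule genes and kept their direction. With at least 4 rule genes 20 did so. In the *Sox9* split 303 genes were called with at least 2 rule genes, 118 with at least 4, 106 by DESeq2 and 373 with no low-count filter. For *Tnmd* alone against *Scx* alone the counts were 179 with at least 2 rule genes, 36 by DESeq2 and 189 with no filter, and at least 4 rule genes left too few cells for a fit. Counts with 1 library left out ranged from 1740 to 2091 against other kept cells, 1333 to 1541 against other *Pdgfra*-positive cells, 133 to 218 in the *Sox9* split, 70 to 157 for *Tnmd* against *Scx* (157 without library 2), 1825 to 2101 against the limb and 864 to 951 for the interaction. The *Sox9* share difference ranged from 32.8 to 37.5 points. Without the replicate block, that is without pairing the sums of a library, 2392, 1785, 218 and 64 genes were called in the penis comparisons in the same order, and the exact permutation p of the *Sox9* share was 0.1.

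Some named genes turned direction, and the cause was not tested except where the setting removes cells by the gene itself (*Sox9*, *Cldn5*, *Sox10*, *Tyrobp*). Against other kept cells these were *Myh11* (1.14) with at least 2 rule genes, *Snorc* (0.52) at 5000 to 20000 UMIs, *Col9a1* (-0.13) and *Sox9* (-1.59, by construction) without cells of 2 or more *Sox9* UMIs, and *Cldn5* (0.0036), *Sox10* (0.42) and *Tyrobp* (0.15) without cells carrying markers of another type, which these genes mark. Against *Pdgfra*-positive cells they were *S100a8* (0.55) and *S100a9* (1.65) with at least 2 rule genes and *Tyrobp* (0.57) without cells carrying markers of another type. In the interaction it was *S100a8* (0.34 without the forelimb library, and down to -4.39 without the hindlimb library). With no low-count filter the median log2 fold change of all genes moved by over 0.1, to -0.29, -0.22 and -0.16 against other kept, *Pdgfra*-positive and limb cells and to -0.11 for *Tnmd* alone against *Scx* alone.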

Other observations

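Of 20 genes of guidance and nerve or vessel cues 6 were lower and 1 higher in tendon-like cells than in other *Pdgfra*-positive penis cells, where 6.18% of all genes tested were lower and 3.27% higher. *Angpt2*, a ligand that acts on vessel growth, had 12.4, 12.9 and 9.67 CPM against 127, 132 and 121 CPM (edgeR adjusted p = 1.07e-11), and *Angpt1*, *Vegfd*, *Ntn1*, *Slit3* and *Cxcl12* went the same way. The ranges of *Angpt2* lay apart in all 3 libraries. *Sema3d*, a secreted guidance cue, had 587, 519 and 517 CPM against 191, 205 and 213 CPM.

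Of 13 matrix proteases and inhibitors *Mmp14*, a membrane-bound collagenase, was 2.40-fold higher, and *Mmp13*, *Adamts5*, *Adamts12* and *Adamts15* were lower. *Mmp14* had 1121, 1001 and 1096 CPM against 468, 470 and 487 CPM. Of 14 genes of fetal growth *Dlk1*, *Igfbp2* and *Igfbp3* were lower and *Igfbp5* higher, though *Igfbp5* fell to a log2 fold change of 0.98 without library 2. *Dlk1* had 146, 185 and 148 CPM against 743, 669 and 695 CPM.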
